A study of Mus musculus with 12 samples.

Results

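Inflammatory monocytes, also called classical monocytes, are blood cells made in the bone marrow that enter inflamed tissue and lymph nodes and there become macrophages or dendritic cells. In the mouse they carry the surface protein Ly6C, leave the marrow through the chemokine receptor CCR2, and express a set of secreted and matrix proteins. The 7 genes described here, Ly6c2, Cd14, Chil3, F13a1, Fn1, Vcan and Plac8, are commonly used to recognise them. They were taken by name from the 52355 genes to which the transcripts were summed, and all 7 were among the 23729 genes with enough counts to test.

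RNA of CD11c cells from the mouse inguinal lymph node was sequenced in 12 libraries, 4 per group. One group came from nodes draining a subcutaneous KPC tumor, a mouse model of pancreatic carcinoma, in mice given a CD40 agonist. Another came from tumor-draining nodes of mice not given it, and the last from nodes of healthy mice that had neither tumor nor agonist. CD40 is a receptor that activates antigen-presenting cells, and CD11c, the product of Itgax, is a dendritic cell integrin also found on monocytes, macrophages and some lymphocytes. Mouse strain, age, agonist dose, its timing, control injections and cell purity are not stated in the labels.

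Each library title begins with a prefix that 1 library of each group shares, which gave replicate numbers 1 to 4. The tests below leave this prefix out unless it is named as a block. Itgax stood at 641 to 921 CPM in agonist, 751 to 1130 CPM in tumor-draining and 647 to 1090 CPM in healthy libraries, where CPM stands for counts scaled to a common library total. Flt3, a growth factor receptor of dendritic cells, stood at 324 to 543, 525 to 832 and 589 to 821 CPM in the same order of groups. Libraries held 32626784 to 56320661 estimated counts, and Malat1, a nuclear RNA, took 0.418% to 2.47% of them. In such bulk samples fewer cells of a type and less RNA per cell cannot be told apart, so a change below may be either. Nothing in the labels ties libraries to separate animals, and the p-values reflect only how these samples vary, in part perhaps technically.

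Ly6c2 has a near-identical neighbour, and the stretch that opens both coding sequences is shown because counts of the pair are hard to separate. Ly6c2 (ENSMUSG00000022584) lies on chromosome 15 at 75108158 to 75111970 and its paralog Ly6c1 at 75044018 to 75048830, both on the minus strand of GRCm38. Their coding sequences, each of 393 bases, differ at 9 positions (97.7% identity), and 49.2% of the 31-base words of the main Ly6c2 transcript also occur in transcripts of Ly6c1. Capitals mark the 6 bases by which the first 90 coding bases of the pair differ, read from GENCODE M21 transcripts.
Ly6c2: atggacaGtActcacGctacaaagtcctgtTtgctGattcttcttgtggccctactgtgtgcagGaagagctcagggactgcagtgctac
Ly6c1: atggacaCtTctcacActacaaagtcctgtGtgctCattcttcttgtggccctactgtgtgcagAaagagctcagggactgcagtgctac
A read from a shared stretch was divided between the genes by the authors' quantification, so the Ly6c2 values carry that uncertainty. Chil3 and its neighbour Chil4 are alike over 94.4% of their aligned coding bases and share 31.1% of the 31-base words, but Chil4 held 0 to 41 counts in any library.

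F13a1 and Chil3 were the members that passed the test in any comparison. The 250 bases before the start of each are therefore printed, both from the minus strand of GRCm38.p6 in the RefSeq promoter table. F13a1 is shown for chr13:37050245-37050494, where the capitals mark GAGGAA, the core letters bound by the myeloid factor PU.1, and Chil3 for chr3:106167565-106167814, where they mark TTCNNNGAA, the spaced letters bound by STAT factors.
F13a1: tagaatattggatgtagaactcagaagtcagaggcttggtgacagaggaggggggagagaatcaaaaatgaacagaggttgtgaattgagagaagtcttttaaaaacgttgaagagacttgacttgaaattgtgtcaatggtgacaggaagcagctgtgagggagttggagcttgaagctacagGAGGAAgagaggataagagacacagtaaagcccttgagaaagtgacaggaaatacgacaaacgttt
Chil3: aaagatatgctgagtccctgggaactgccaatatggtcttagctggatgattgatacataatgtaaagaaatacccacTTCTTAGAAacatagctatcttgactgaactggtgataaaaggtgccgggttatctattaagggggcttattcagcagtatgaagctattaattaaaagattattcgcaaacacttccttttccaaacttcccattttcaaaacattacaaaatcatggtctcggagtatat
Both strands were searched in 5 member promoters. Fn1 had no entry in the promoter table, and Cd14 was left out by choice and not searched, so the counts below do not cover all 7 members. GAGGAA was in 3 of the 5 (F13a1, Ly6c2 and Plac8) and in 23.3% of all 32851 promoters of that length. TTCNNNGAA was in 1 of the 5 and in 7.02% of all. None of the 5 held TTGCNNAA (C/EBP, 9.56% of all), TGANTCA (AP-1, 6.75%), the interferon-stimulated response element (2.98%) or TATAAA (12.4%). A match describes letters only and shows no binding.

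Set against their lengths, the members differed widely in level. CPM per kilobase of the most counted transcript, as the median over the 12 libraries, were 252 for Plac8, 84.3 for Ly6c2, 7.28 for Cd14, 5.31 for Fn1, 2.83 for F13a1, 2.45 for Chil3 and 0.365 for Vcan. Plac8 and Ly6c2 stood above the rest in every library, and their own ranges, 124 to 637 and 35.4 to 151, overlapped. Cd14, at 4.89 to 16 over the 12 libraries, lay above F13a1, at 0.852 to 4.48, in every library. The ranges of Fn1 and Chil3 overlapped those of both and each other, so their place in the order is not fixed, and Vcan overlapped only with Chil3. The deposited TPM were not used for this order, because short annotated fragments took most of the summed TPM of some members. Vcan-204, of 294 bases, held 64.6% of the Vcan TPM with 1.85% of its counts, and Chil3-203, of 174 bases, held 43.5% of the Chil3 TPM with 0.726% of its counts.

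**Figure D1:**
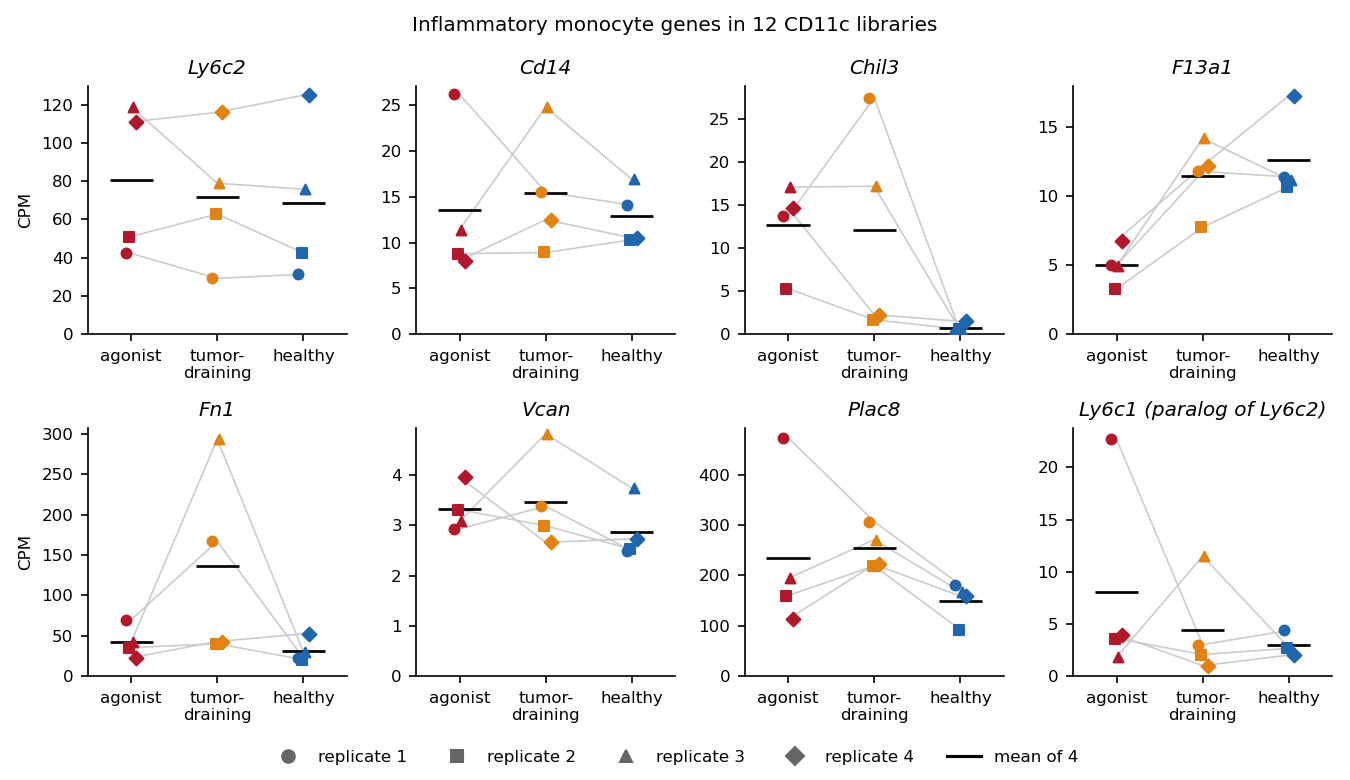
CPM of each member, and of the Ly6c2 paralog Ly6c1, in the 12 libraries, with agonist, tumor-draining and healthy groups from left to right on a linear axis from 0. Marker shapes give the replicate number, grey lines join libraries of one title prefix and black bars are means of 4; the F13a1 agonist libraries lie at 3.28 to 6.78 CPM, all under the 7.76 CPM of the lowest tumor-draining library.

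Among the surface proteins, neither Ly6c2 nor Cd14 passed the test in any comparison. Ly6c2, a glycolipid-anchored protein and the antigen by which inflammatory monocytes are gated in the mouse, had 42.2, 51.0, 119 and 111 CPM in agonist replicates 1 to 4. It had 29.1, 62.8, 78.9 and 116 CPM in tumor-draining replicates 1 to 4, and 31.3, 42.4, 75.8 and 125 CPM in healthy replicates 1 to 4. Replicates 1 and 2 were low and replicates 3 and 4 high in all 3 groups, and the groups overlapped throughout. Of the variance of Ly6c2 on the log scale, 90.7% lay between prefixes and 2.83% between groups. The log2 fold change was 0.17 ± 0.51 (SE) for agonist against tumor-draining, 0.24 ± 0.51 for agonist against healthy and 0.07 ± 0.51 for tumor-draining against healthy, with edgeR adjusted p of 0.967, 0.883 and 0.974. With the prefix as a block the SE narrowed to 0.16, and the adjusted p were 0.514, 0.230 and 0.702.

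Plasmacytoid dendritic cells of the mouse also carry Ly6C, and their markers followed much the same order of libraries, as did markers of some other cells. The summed CPM of 10 plasmacytoid markers was 427, 534, 837 and 876 in agonist, 532, 859, 950 and 1280 in tumor-draining and 526, 730, 1030 and 1150 in healthy replicates 1 to 4. Within tumor-draining and healthy groups that is the order of Ly6c2, and in agonist libraries only replicates 3 and 4 changed places. The 10 markers were called in no comparison by edgeR without the block (unadjusted p under 0.05: 3 lower for agonist against tumor-draining, 2 lower against healthy, 0 for tumor-draining against healthy, and by DESeq2 0, 1 and 0). With the block, 6 were lower in agonist against tumor-draining libraries, Ccr9, Tcf4 and Smim5 among them, 5 were lower and 1 higher in agonist against healthy libraries, and 1, Spib, was higher in tumor-draining against healthy libraries (adjusted p = 0.00784). The part of plasmacytoid cells in the Ly6c2 values was not tested. A like order of replicates was found for T cell markers. Their summed CPM was 194, 270, 407 and 419 in agonist replicates 1 to 4. It was 233, 360, 356 and 467 in tumor-draining and 243, 334, 356 and 474 in healthy replicates 1 to 4. The make-up of the libraries also went with the prefix. Mitochondrial genes took 4.1% to 4.75% of the counts in replicate 1, 2.6% to 2.9% in replicate 2, 1.5% to 2.2% in replicate 3 and 1.2% to 1.6% in replicate 4. Malat1 took 1.25% to 2.47% in replicates 1 and 2 and 0.418% to 1.15% in replicates 3 and 4. Whether this bears on the Ly6c2 values was not tested.

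The Ly6c1 counts were far lower and were decided by single libraries. Ly6c1 had 22.7, 3.59, 1.79 and 3.96 CPM in agonist, 3.01, 2.06, 11.5 and 1.0 CPM in tumor-draining and 4.37, 2.66, 2.71 and 2.0 CPM in healthy replicates 1 to 4. Agonist replicate 1 and tumor-draining replicate 3 stood above all others, and agonist replicate 1 was the lowest of its group in Ly6c2. Of the 7 tested genes of the wider Ly6 family, 1 was higher in agonist against tumor-draining and 2 in agonist against healthy libraries. Ly6i, a closely related family member, averaged 70.8 ± 22.5 CPM in agonist and 23.4 ± 5.34 CPM in tumor-draining libraries (SD, n = 4 each), a log2 fold change of 1.60 ± 0.28 with an edgeR adjusted p of 0.00697. Ly6a, known as Sca-1, averaged 157 ± 52.4 CPM in agonist and 43.2 ± 19.5 CPM in healthy libraries, 1.86 ± 0.34 on the log2 scale with an adjusted p of 0.00477.

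Cd14 (chromosome 18) encodes a co-receptor that hands bacterial lipopolysaccharide to the TLR4 complex. It had 26.2, 8.78, 11.4 and 8.03 CPM in agonist, 15.5, 8.91, 24.8 and 12.5 CPM in tumor-draining and 14.1, 10.3, 16.9 and 10.5 CPM in healthy replicates 1 to 4. The highest library of each group was replicate 1 or 3, 62.0% of the log-scale variance lay between prefixes, and the groups overlapped. The log2 fold change was -0.18 ± 0.38 for agonist against tumor-draining, 0.07 ± 0.38 for agonist against healthy and 0.25 ± 0.38 for tumor-draining against healthy, with edgeR adjusted p of 0.942, 0.956 and 0.867; the second was -0.02 with the block. Of 13 genes of TLR4 signaling, 1 fell in each agonist comparison and none passed in the tumor comparison by edgeR (2 higher at an unadjusted p under 0.05, 0 by DESeq2, and 3 higher with the block). With the block 4 fell in agonist against tumor-draining libraries, and 3 rose and 1 fell against healthy libraries. The gene that fell was Cd180, a TLR4 homologue best known from B cells, at 42.2 ± 2.05 CPM in agonist against 63.8 ± 7.58 CPM in tumor-draining libraries (log2 fold change -0.60 ± 0.14, adjusted p = 0.0381). Tlr4 itself averaged 28.3 ± 5.34 CPM in agonist and 17.2 ± 2.69 CPM in healthy libraries, 0.72 ± 0.25 on the log2 scale with an adjusted p of 0.111.

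Chil3 encodes Ym1, a secreted chitinase-like protein of monocytes, neutrophils and alternatively activated macrophages. It had 13.7, 5.29, 17.1 and 14.7 CPM in agonist, 27.5, 1.65, 17.2 and 2.25 CPM in tumor-draining and 0.171, 0.560, 0.382 and 1.48 CPM in healthy replicates 1 to 4. All healthy libraries lay below all others, with only 7, 20, 20 and 71 counts. Tumor-draining libraries split, with replicates 1 and 3 at the level of the agonist libraries or above and replicates 2 and 4 just above the highest healthy library.

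Chil3 rose in agonist against healthy libraries by 4.27 ± 0.99 on the log2 scale (edgeR adjusted p = 0.0262; 4.16 ± 1.09 and 0.0419 with the block), in 4 of 4 prefix pairs. In tumor-draining against healthy libraries it was 4.21 ± 0.98 with an adjusted p of 0.150, also higher in 4 of 4 pairs. Of all tested genes 18.7% were higher in every pair in the first of these comparisons and 19% in the second. The pair differences there were 7.0, 1.49, 5.34 and 0.59 for replicates 1 to 4, so the size differed greatly between prefixes. DESeq2 called it in that comparison, with an adjusted p of 0.000705. Between agonist and tumor-draining libraries the log2 fold change was 0.06 ± 0.83 (adjusted p = 0.996). The call against healthy libraries was lost without healthy replicate 1, 2 or 3 (adjusted p of 0.0961, 0.0856 and 0.103), without agonist replicate 1, 3 or 4 (0.0522, 0.0735 and 0.0528), without the count filter (0.0744) and with limma on TPM (0.0940). Groups that did not overlap, as here, were found for 7.6% of all tested genes higher in agonist against healthy and for 2.57% higher in tumor-draining against healthy libraries.

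Markers of neutrophils, whose marrow precursors also make Chil3, were higher in the same groups. The summed CPM of the neutrophil markers was 177, 139, 153 and 76.6 in agonist, 124, 102, 239 and 63.6 in tumor-draining and 39.3, 47.1, 49.9 and 38.8 in healthy replicates 1 to 4. Of the 10 tested, Csf3r, Cxcr2 and Retnlg were higher in agonist against healthy libraries, and Csf3r, which binds granulocyte colony-stimulating factor, in tumor-draining against healthy libraries as well. With the block 8 and 5 were higher. None passed between agonist and tumor-draining libraries (1 higher and 1 lower at an unadjusted p under 0.05, 0 by DESeq2). No neutrophil marker was at 0 throughout a group, and their part in the Chil3 values was not tested. Of the chitinase-like family 2 genes were tested besides Chil3, and Chil5 fell to 2.89 ± 0.846 CPM in agonist, against 13.7 ± 3.89 CPM in tumor-draining libraries (log2 fold change -2.24 ± 0.29, adjusted p = 0.0014).

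F13a1, on chromosome 13, encodes the A subunit of coagulation factor XIII, the transglutaminase that cross-links fibrin and is made by monocytes, macrophages and platelets. It was lower in agonist libraries than in both other groups. F13a1 had 4.99, 3.28, 4.92 and 6.78 CPM in agonist, 11.8, 7.76, 14.2 and 12.2 CPM in tumor-draining and 11.4, 10.7, 11.2 and 17.3 CPM in healthy replicates 1 to 4. Every agonist library lay below every other library, and the tumor-draining and healthy libraries overlapped.

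F13a1 fell in agonist against tumor-draining libraries by 1.20 ± 0.24 on the log2 scale (edgeR adjusted p = 0.0170) and against healthy libraries by 1.34 ± 0.25 (adjusted p = 0.0043), lower in 4 of 4 prefix pairs both times. Both comparisons share the agonist libraries. The pair differences against tumor-draining libraries were -1.23, -1.23, -1.52 and -0.84 for replicates 1 to 4. Between tumor-draining and healthy libraries the log2 fold change was -0.14 ± 0.24 (adjusted p = 0.889). Leaving out tumor-draining replicate 3, tumor-draining replicate 4 or agonist replicate 3 moved the adjusted p against tumor-draining libraries to 0.0558, 0.0516 and 0.0513, with log2 fold changes of -1.08, -1.18 and -1.19. With the prefix as a block, F13a1 was -1.22 ± 0.15 against tumor-draining (edgeR adjusted p = 0.000357) and -1.36 ± 0.15 against healthy libraries (9.11e-05). When each prefix was left out of the block fit, the edgeR adjusted p against tumor-draining libraries was 0.000872 to 0.00638. Of all tested genes, 3.4% were lower without overlap in agonist against tumor-draining and 4.75% in agonist against healthy libraries, and 16.4% and 19.8% were lower in all 4 pairs.

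The genes whose log2 CPM was most like that of F13a1 over the 12 libraries, among 10515 compared, were Tmem181a (Pearson r = 0.936), Clec10a (0.924) and Cd209a (0.918). Clec10a and Cd209a are lectins that mark type 2 conventional dendritic cells, and Cd209a is also used for monocyte-derived dendritic cells. The summed CPM of 8 type 2 markers was 324, 297, 415 and 414 in agonist, 669, 522, 704 and 871 in tumor-draining and 802, 558, 1010 and 773 in healthy replicates 1 to 4. The agonist sums lay below all others, as the F13a1 values did. Clec10a and Cd209a, picked for their likeness to F13a1, are themselves on this list, so that likeness was largely fixed in advance. Cd209a, Clec10a and Mgl2 were the genes of the list that fell in both agonist comparisons. They averaged 28.7, 40.4 and 43.3 CPM in agonist, 183, 93.8 and 124 CPM in tumor-draining and 253, 106 and 196 CPM in healthy libraries. The list sums averaged 363, 691 and 786 CPM in these groups, so most of their difference came from these genes. The members of this list did not all move one way: 3 fell and none rose in agonist against tumor-draining libraries, and 3 fell and 2 rose in agonist against healthy libraries, with a median log2 fold change of 0.10 against -0.03 over all genes tested. Cd209a averaged 28.7 ± 15.0 CPM in agonist and 183 ± 50.3 CPM in tumor-draining libraries, -2.67 ± 0.34 on the log2 scale with an adjusted p of 0.00144. The part of these cells in the F13a1 values was not tested.

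Some of the other genes of fibrin cross-linking and breakdown passed the test in agonist libraries. Beside them, 438 of the 23729 tested genes were called as higher in agonist against tumor-draining libraries, where 2.68% were called in either direction. In agonist against healthy libraries 1009 (4.25%) were called as higher. The median log2 fold change of this list was 0.66 and 0.91 in these comparisons, against 0.02 and -0.03 over all tested genes. Of 8 tested, 1 rose in agonist against tumor-draining libraries, 3 in agonist against healthy libraries and none passed in tumor-draining against healthy libraries by edgeR (4 higher at an unadjusted p under 0.05, 0 by DESeq2, 1 with the block). When 1 library was left out, 0 to 3 rose in the first and 1 to 4 in the second of these comparisons. In agonist against tumor-draining libraries 1 gene was lower at an unadjusted p under 0.05, Serpinb2, an inhibitor of urokinase, at -1.90 ± 0.69 on the log2 scale (edgeR adjusted p = 0.206), and DESeq2 called 1 lower. Tgm1, a transglutaminase best known from the skin barrier, averaged 107 ± 35.3 CPM in agonist and 44.8 ± 13.1 CPM in tumor-draining libraries (log2 fold change 1.26 ± 0.30, adjusted p = 0.0429). Tgm2, tissue transglutaminase, averaged 432 ± 169 CPM in agonist and 99.8 ± 24.3 CPM in healthy libraries (2.11 ± 0.47, adjusted p = 0.0172). Plau, the urokinase that activates plasminogen, averaged 43.7 ± 9.11 CPM in agonist and 18.9 ± 1.58 CPM in healthy libraries (1.21 ± 0.18, adjusted p = 0.000991).

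Fn1 and Vcan encode matrix proteins, fibronectin and the proteoglycan versican, which monocytes secrete as they enter tissue. Fn1 had 69.7, 35.3, 41.7 and 22.6 CPM in agonist, 167, 40.0, 294 and 42.8 CPM in tumor-draining and 22.3, 20.3, 29.8 and 52.3 CPM in healthy replicates 1 to 4. Tumor-draining replicates 1 and 3 stood far above all other libraries, and these are also the tumor-draining libraries high in Chil3. Replicates 2 and 4 of that group lay within the range of the other groups.

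Fn1 did not pass the test in any comparison. The log2 fold change was -1.69 ± 0.64 for agonist against tumor-draining (edgeR adjusted p = 0.263, lower in 4 of 4 pairs), 0.44 ± 0.62 for agonist against healthy (0.814) and 2.13 ± 0.65 for tumor-draining against healthy libraries (0.335, higher in 3 of 4 pairs). Without tumor-draining replicate 3 the first was -0.98 and the third 1.42. Of all tested genes, 16.4% were lower in all 4 pairs in agonist against tumor-draining libraries. Fibroblasts and macrophages make fibronectin as well. The 10 fibroblast markers summed to 17.1 to 25.9 CPM in agonist, 13.8 to 38.8 CPM in tumor-draining and 10.3 to 19.1 CPM in healthy libraries, with tumor-draining replicate 3 the highest. The node macrophage markers summed to 1480, 1100, 1650 and 1600 CPM in agonist, 812, 516, 1050 and 634 CPM in tumor-draining and 647, 647, 530 and 740 CPM in healthy replicates 1 to 4, so that tumor-draining replicates 1 and 3 were the highest of their group. None of the 7 tested fibroblast genes passed in any comparison by edgeR or DESeq2 (unadjusted p under 0.05: 4 higher in tumor-draining against healthy, 1 lower in agonist against tumor-draining and 0 in agonist against healthy libraries). The part of either cell type in the Fn1 values was not tested.

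The genes most like Fn1 over the 12 libraries were Sirpb1c (Pearson r = 0.939), Ccl24 (0.938) and Spp1 (0.930), where Ccl24 is an eosinophil-attracting chemokine and Spp1 encodes osteopontin. Spearman's rho was 0.916, 0.678 and 0.783 for the same genes. Libraries that share a prefix or a group are not independent points in these correlations.

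Vcan had 2.93, 3.31, 3.08 and 3.96 CPM in agonist, 3.38, 2.99, 4.82 and 2.66 CPM in tumor-draining and 2.49, 2.52, 3.74 and 2.73 CPM in healthy replicates 1 to 4. It varied least among the members, with a ratio of 1.93 between the highest and the lowest of the 12 libraries, and the groups overlapped. The log2 fold change was -0.06 ± 0.25 for agonist against tumor-draining, 0.21 ± 0.25 for agonist against healthy and 0.27 ± 0.25 for tumor-draining against healthy libraries, with edgeR adjusted p of 0.978, 0.770 and 0.809. Its direction was opposite in the last 2 comparisons on summed TPM (-0.24 and -0.16), which rest largely on the 294-base fragment named above. Of 8 receptors of fibronectin and versican, none passed in any comparison by edgeR without the block. At an unadjusted p under 0.05, 1 was higher in agonist against tumor-draining, 2 in agonist against healthy and 0 in tumor-draining against healthy libraries, and DESeq2 called 1, 1 and 0. With the block 1, 4 and 1 were higher. Cd44, the hyaluronan receptor, averaged 663 ± 68.9 CPM in agonist and 472 ± 57.5 CPM in tumor-draining libraries, 0.49 ± 0.13 on the log2 scale with an adjusted p of 0.0647 (0.00135 with the block).

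Plac8, a small cysteine-rich protein that classical monocytes, plasmacytoid dendritic cells and granulocytes express strongly, was the most abundant member. It had 474, 160, 194 and 113 CPM in agonist, 307, 219, 271 and 222 CPM in tumor-draining and 181, 92.0, 168 and 159 CPM in healthy replicates 1 to 4. Every tumor-draining library lay above every healthy one, and the agonist libraries spread across and beyond both. The log2 fold change was -0.12 ± 0.36 for agonist against tumor-draining (edgeR adjusted p = 0.968), 0.65 ± 0.36 for agonist against healthy (0.420) and 0.77 ± 0.36 for tumor-draining against healthy libraries (0.655, higher in 4 of 4 pairs). It passed with neither fit, and with the block the last was 0.78 ± 0.30 with an adjusted p of 0.167. Of all tested genes, 2.57% were higher without overlap in tumor-draining against healthy libraries, and 19% were higher in all 4 pairs.

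**Figure D2:**
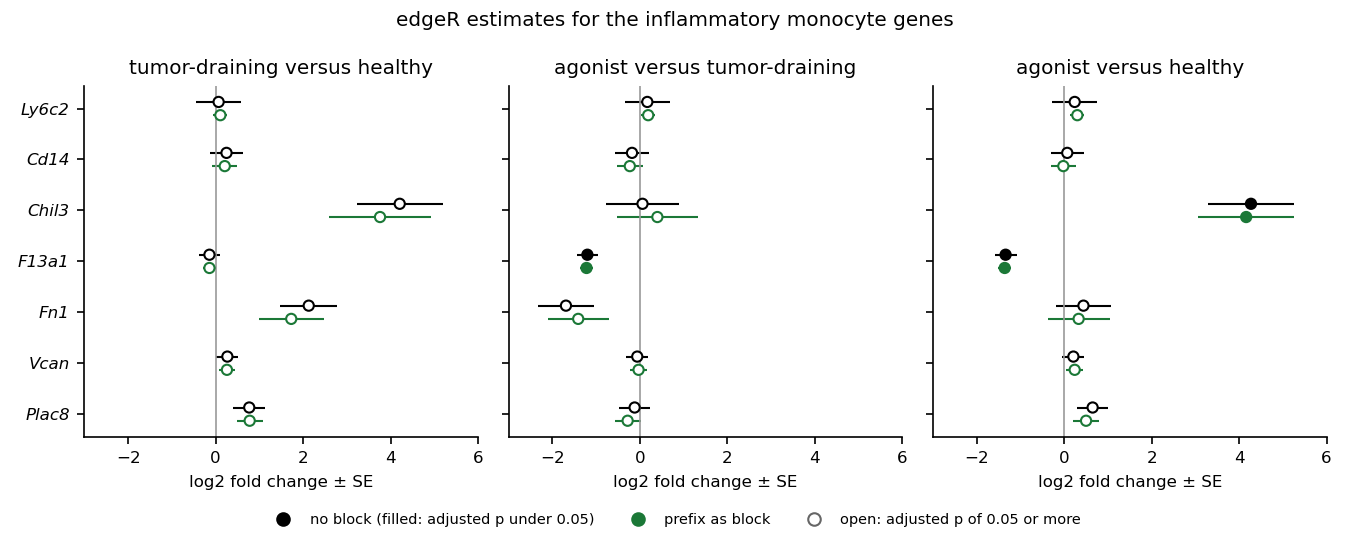
Log2 fold change and SE of the 7 members in each comparison, from the edgeR fit without a block (black) and with the title prefix as a block (green), filled where the adjusted p was under 0.05. Only F13a1 (-1.20 and -1.34 without the block) and Chil3 (4.27, agonist against healthy) are filled.

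Counted over the set, 1 of 7 members was lower and none higher in agonist against tumor-draining libraries, where 2.68% of all tested genes were called and 0.83% as lower. In agonist against healthy libraries 1 was higher and 1 lower, beside 6.28% of all tested genes, 4.25% higher and 2.03% lower. In tumor-draining against healthy libraries none was called by edgeR, beside 0.198% of all; 2 (Chil3 and Fn1) had an unadjusted p under 0.05, as 7.76% of all genes had, and DESeq2 called 1, beside 1.43% of all. The counts of members were the same with the prefix as a block, where 13.3%, 20.1% and 6.3% of all genes were called in those 3 comparisons. The median log2 fold change of the 7 was -0.12, 0.24 and 0.27, beside 0.02, -0.03 and -0.02 over all tested genes. The 3 comparisons share libraries in pairs.

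The members differed in how they varied across libraries. Of the 21 pairs of members, the highest Pearson r of log2 CPM over the 12 libraries was 0.74 (Cd14 with Plac8), followed by 0.69 (Plac8 with Fn1), 0.64 (Cd14 with Fn1) and 0.63 (Chil3 with Fn1). F13a1 had its highest r, 0.26, with Fn1, and its lowest, -0.36, with Chil3. Ly6c2 reached 0.23 with Vcan and -0.28 with Cd14. The share of variance between groups was 77.6% for F13a1, 70.9% for Chil3, 42.6% for Fn1, 29.4% for Plac8, 16.7% for Vcan, 3.98% for Cd14 and 2.83% for Ly6c2. The genes most like Ly6c2 were Ormdl3 (r = 0.972), Mepce (0.972) and Sema4b (0.970), those most like Chil3 were Socs3 (0.936), Ddt (0.934) and Spon1 (0.931), and those most like Plac8 were Tmem256 (0.953), Hist1h1a (0.950) and Ppil3 (0.940). Gsk3b (0.932), Cnot6 (0.910) and Cnot6l (0.907) were most like Vcan, and Emp1 (0.950), Mboat1 (0.885) and Tspan5 (0.883) most like Cd14.

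**Figure D3:**
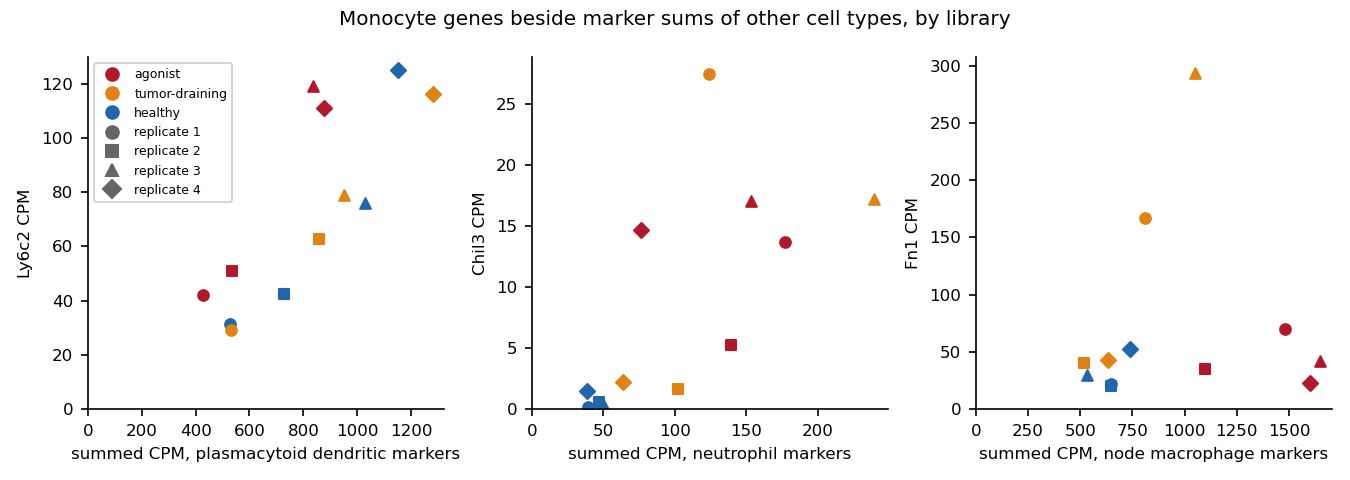
CPM of Ly6c2, Chil3 and Fn1 (y axes) against the summed CPM of plasmacytoid dendritic, neutrophil and node macrophage markers (x axes) in the 12 libraries, colored by group and shaped by replicate number. Ly6c2 and the plasmacytoid sum are lowest in replicates 1 and 2 of each group; the healthy libraries are the lowest in both Chil3 and the neutrophil sum, and the highest Fn1 values are those of tumor-draining replicates 3 and 1.

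A list of 20 other genes of classical monocytes was set beside the members. In agonist against healthy libraries 9 rose and 2 fell, with a median log2 fold change of 1.0, against 0.24 for the members. Those that rose were Clec4e, Trem1, Hp, Fcgr1, Ifitm6, Cebpb, Ifitm3, Gda and Lyz2. Clec4e, the lectin Mincle that senses mycobacterial glycolipid, averaged 44.3 ± 16.9 CPM in agonist and 5.61 ± 2.36 CPM in healthy libraries (log2 fold change 2.99 ± 0.35, edgeR adjusted p = 0.000271). Gda, guanine deaminase, averaged 239 ± 37.8 CPM in agonist and 66.1 ± 9.75 CPM in healthy libraries (1.86 ± 0.20, adjusted p = 0.000142). Lyz2, the lysozyme of myeloid cells, averaged 5090 ± 865 CPM in agonist and 2850 ± 414 CPM in healthy libraries (0.83 ± 0.17, adjusted p = 0.00809). When 1 library was left out, 8 to 9 remained called as higher and 2 as lower, as counts.

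Ccr2 and Klf4 fell with the agonist. Ccr2, the receptor by which inflammatory monocytes leave the marrow, averaged 132 ± 11.1 CPM in agonist, 363 ± 64.5 CPM in tumor-draining and 390 ± 78.4 CPM in healthy libraries. The log2 fold change was -1.46 ± 0.17 against tumor-draining (edgeR adjusted p = 0.000761) and -1.56 ± 0.17 against healthy libraries (0.00015), lower in 4 of 4 pairs each. Of all tested genes, 16.4% and 19.8% were lower in all 4 pairs of these comparisons. Klf4, a transcription factor needed for monocyte formation, averaged 29.8 ± 4.61 CPM in agonist and 64.9 ± 25.1 CPM in tumor-draining libraries (-1.12 ± 0.25, adjusted p = 0.0264). Ccr2 and Klf4 are also expressed by dendritic cells, and F13a1 fell beside them. Marker sums of other myeloid cells were higher in agonist than in healthy libraries. They were 76.6 to 177 against 38.8 to 49.9 CPM for neutrophils and 1100 to 1650 against 530 to 740 CPM for node macrophages. Which cells the rises and falls of this list came from was not tested.

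In agonist against tumor-draining libraries 3 of the 20 rose (Clec4e, Gda and Lyz2) and 2 fell, and leaving out 1 library gave 1 to 3 and 1 to 2. With the block 7 rose and 3 fell there, and 14 rose and 2 fell in agonist against healthy libraries. In tumor-draining against healthy libraries none passed by edgeR, 13 were higher at an unadjusted p under 0.05, DESeq2 called 8 higher, and 11 were higher with the block. Ifitm6, an interferon-induced membrane protein, averaged 14.0 ± 5.99 CPM in tumor-draining and 3.74 ± 1.34 CPM in healthy libraries (1.90 ± 0.38, adjusted p = 0.0597, and 0.0108 with the block). The summed level of the 20 was 7080 to 10300 CPM in agonist, 5640 to 7300 CPM in tumor-draining and 4980 to 6130 CPM in healthy libraries. Lyz2 alone averaged 5090, 3160 and 2850 CPM in these groups, within mean sums of 8340, 6680 and 5340 CPM. The sums thus rest largely on that gene and do not show a rise of the whole list. None of the 20 was at 0 throughout a group.

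**Figure D4:**
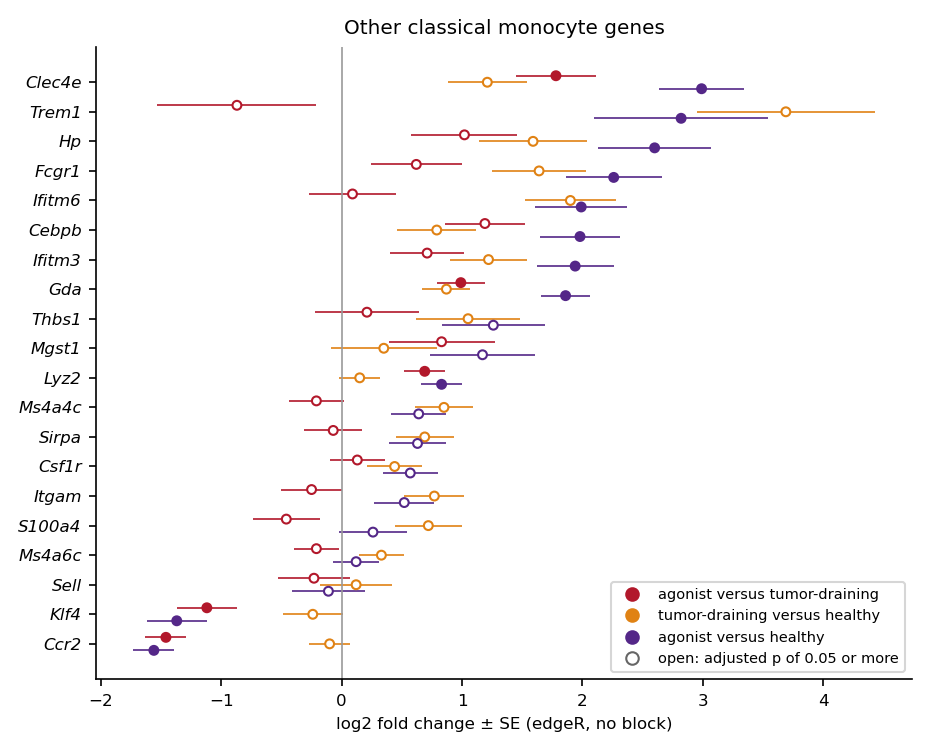
Log2 fold change and SE (edgeR without a block) of 20 other classical monocyte genes in the 3 comparisons, ordered by agonist against healthy and filled where the adjusted p was under 0.05. Clec4e (2.99) is at the top and Ccr2 (-1.56) at the bottom, and no point of tumor-draining against healthy is filled.

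Some of the ligands and growth factors that draw or sustain monocytes rose in agonist libraries. Of 8 tested, 3 were higher in agonist against tumor-draining and 5 in agonist against healthy libraries, and none passed in tumor-draining against healthy libraries by edgeR (1 lower at an unadjusted p under 0.05, 0 by DESeq2, 0 with the block). When 1 library was left out, 1 to 3 and 1 to 6 were called, and with the block 5 and 4. Ccl12, a CCR2 ligand of the mouse, averaged 14.3 ± 3.50 CPM in agonist and 6.24 ± 2.03 CPM in tumor-draining libraries (log2 fold change 1.20 ± 0.28, edgeR adjusted p = 0.0345). Cx3cl1, the ligand of the receptor of nonclassical monocytes, averaged 36.4 ± 7.16 CPM in agonist and 14.7 ± 3.14 CPM in tumor-draining libraries (1.31 ± 0.24, adjusted p = 0.00913). Csf1, the growth factor of monocytes and macrophages, averaged 55.0 ± 29.6 CPM in agonist and 23.3 ± 2.60 CPM in tumor-draining libraries (1.24 ± 0.30, adjusted p = 0.0413, and 0.0936 with the block).

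Lists of later and related cell states moved in both directions. Of 12 genes of monocyte-derived macrophages and dendritic cells, 2 fell in agonist against tumor-draining libraries, Cd209a and Mgl2. Both are also on the type 2 dendritic list above. In agonist against healthy libraries 3 of the 12 rose and 3 fell, beside 4.25% and 2.03% of all tested genes. Their median log2 fold change there was 0.77, against -0.03 over all tested genes. With the block 4 rose and 3 fell. Of 9 tested node macrophage genes 4 rose and 1 fell in that comparison, with Siglec1, the sialoadhesin of sinus macrophages, at 169 ± 68.9 CPM in agonist and 46.1 ± 8.20 CPM in tumor-draining libraries (1.88 ± 0.23, edgeR adjusted p = 0.00118). Of 10 genes of nonclassical monocytes none passed in agonist against tumor-draining libraries (1 higher and 2 lower at an unadjusted p under 0.05, 0 by DESeq2, 2 lower with the block), and 1 passed in agonist against healthy libraries, Pglyrp1, a peptidoglycan-binding protein that neutrophils also store, at 19.5 ± 4.66 CPM in agonist and 10.3 ± 1.27 CPM in healthy libraries (0.93 ± 0.18, adjusted p = 0.00547). With the block 2 nonclassical genes were higher and 4 lower in agonist against healthy libraries, and 2 were higher in tumor-draining against healthy libraries. Of 10 transcription factors of monocytes 2 rose and 1 fell in agonist against healthy libraries, and 3 rose and 2 fell with the block. Cebpb averaged 10.2 ± 3.76 CPM in agonist and 2.59 ± 0.977 CPM in healthy libraries (1.98 ± 0.33, adjusted p = 0.00248), and Gfi1 averaged 4.61 ± 1.94 and 1.57 ± 0.383 CPM in the same groups (1.56 ± 0.32, adjusted p = 0.00831).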

How the data were processed

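The submitters' processing notes name Salmon on mm10 for the deposited estimated counts per transcript and the deposited TPM. Program version, annotation and filters are not stated there. The deposited data are named for sailfish instead, so which program made them is not settled. Per the labels' protocols, libraries were made from total RNA with the NEBNext Ultra II Directional kit. Of 132374 transcripts, 131974 matched GENCODE M21 and were summed to genes and rounded, and 400 (0.116% to 0.147% of a library's counts) were left out.

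Tests used edgeR 4.0.16 under R 4.3.3 (quasi-likelihood, robust, TMM scaling, filterByExpr with a minimum count of 10), with all 12 libraries in one fit, group as its only term and 9 residual degrees of freedom. A call is a Benjamini-Hochberg adjusted p under 0.05 over all 23729 genes. The fit was tested on simulated counts. CPM use TMM library sizes, and correlations use log2 CPM with a prior count of 2. Libraries of 1 group were not duplicates (lowest chi-square per degree of freedom 27.7).

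Alternatives were the title prefix as a block, RLE scaling, DESeq2 1.42.0, no count filter, limma 3.58.1 on log2(TPM + 0.5), the 2 compared groups alone, each library left out and the block without each prefix. Deviations from group means correlated at 0.20 to 0.47 in the 12 same-prefix pairs of libraries and at a median of -0.24 in the 36 others. The prefix was treated as pairing libraries in the block fits only, and the main fit left it out. The labels do not say what it stands for.

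The 7 genes and the 23 other lists were chosen with earlier results of these data known. Named genes are the 7, Ly6c1, up to 3 genes of each list with the smallest p per comparison, and the 3 genes most like each of the 7 by Pearson r, among protein-coding genes averaging at least 2 in log2 CPM. All called genes of the classical monocyte list are named as well, and Chil4, Itgax and Flt3 were added; these choices followed the values. Ccl19, with 2 annotated genes, was left out of its list. Promoter sequence is from RefSeq and is printed for F13a1 and Chil3 only. The result of 1 gene of the list of monocyte-derived macrophages and dendritic cells is not reported here.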

Additional observations from a re-analysis of the deposited data

Results flagged for a closer look

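One value stood apart from the rest of its group among the 21 sets of 4 libraries examined for the members. F13a1 in healthy replicate 4 was 17.3 CPM, against 10.7 to 11.4 CPM in the other healthy libraries, and the gap was 0.895 of the group's range, above Dixon's 95% critical value for 4 values. Chance alone gives about 1 such value in 20 sets. It lies on the side away from the agonist libraries. Without it F13a1 was 0.05 on the log2 scale in tumor-draining against healthy libraries, in place of -0.14, and neither passed the test.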

How the results depend on the processing

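Between tumor-draining and healthy libraries edgeR called 47 genes, against 75 without the count filter, 367 with DESeq2, 16 with limma on TPM, 25 with the 2 groups alone, 1495 with the replicate block, 107, 193, 164 and 1502 with the block without replicates 1 to 4, and 0 to 101 with each library left out. Between agonist and tumor-draining libraries it called 635, against 1091 with DESeq2, 284 with limma, 3161 with the block, 1609, 2241, 2311 and 2333 with the block without replicates 1 to 4, and 323 to 547 with a library left out. Between agonist and healthy libraries it called 1490, against 815 with limma, 4781 with the block, 2751, 3134, 3172 and 4450 with the block without replicates 1 to 4, and 829 to 1535 with a library left out.

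Members called were 1 in place of 0 in tumor-draining against healthy libraries with DESeq2, and 0 to 1 in agonist against tumor-draining and 1 to 2 in agonist against healthy libraries with a library left out. In the last comparison 1 in place of 2 was called without the filter, with limma and with the block without replicate 1, 2 or 3, F13a1 each time; Chil3 then had an adjusted p of 0.0866, 0.123 and 0.176 with the block. The pairing changed the call of no member. F13a1 kept its direction and call in agonist against healthy libraries under every alternative run, with log2 fold changes of -1.55 to -1.10. The cause of these differences was not tested.

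Among the alternative values of the members, 411 kept direction and call, 14 lost a call, 1 gained one and 36 changed sign, all of those 36 among values that did not pass. For tumor-draining against healthy libraries these were Vcan with limma (-0.16) and Ly6c2 with the block without replicate 2 (-0.08). For agonist against tumor-draining libraries they were, with the block, Vcan without replicate 1 (0.04) or 3 (0.12), Ly6c2 (-0.00) and Cd14 (0.02) without replicate 3, and Chil3 without replicate 4 (-0.02). For agonist against healthy libraries they were Cd14 with the block (-0.02), with limma (-0.14) and with the block without replicates 1 (-0.38) or 2 (-0.01), Fn1 with limma (-0.22) and with the block without replicate 1 (-0.09), and Vcan with limma (-0.24). With a library left out, ranges crossing 0 were -0.27 to 0.53 (Ly6c2), -0.25 to 0.05 (F13a1) and -0.07 to 0.44 (Cd14) for tumor-draining against healthy, -0.08 to 0.50 (Ly6c2), -0.72 to 0.09 (Plac8), -0.30 to 0.85 (Chil3), -0.19 to 0.14 (Vcan) and -0.71 to 0.14 (Cd14) for agonist against tumor-draining, and -0.02 to 0.70 (Ly6c2) and -0.47 to 0.22 (Cd14) for agonist against healthy libraries.

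Depth limits Chil3 most, since a healthy library held as few as 7 counts of it, and Vcan held 90 to 250 counts per library. With 4 libraries per group, a p that misses the threshold does not show that levels were alike.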

Other observations

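Markers of other cell types were counted in the same fits, without the block unless stated. Of 8 genes of mature migratory dendritic cells, 4 rose in agonist against tumor-draining, 7 in agonist against healthy and 1 in tumor-draining against healthy libraries. With 1 library left out these counts were 4 to 5, 4 to 7 and 0 to 1, and with the block 7, 7 and 2. Their summed level was 5380 to 8420 CPM in agonist, 2300 to 3870 CPM in tumor-draining and 2600 to 3980 CPM in healthy libraries. Of 8 genes of type 1 dendritic cells, 2 fell in agonist against tumor-draining libraries, 0 to 6 with 1 library left out, and 5 fell in agonist against healthy libraries, also with any library left out. With the block 1 rose and 5 fell in each. The type 1 sums were 997 to 1850 CPM in agonist, 1490 to 2970 CPM in tumor-draining and 1830 to 3050 CPM in healthy libraries. Of 8 genes of type 2 dendritic cells, 1 rose in tumor-draining against healthy libraries, and 3 with the block.

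Calls among lymphoid markers varied with the fit. Of 7 tested plasma cell genes, 3 rose in agonist against healthy and 2 in tumor-draining against healthy libraries, against 2 to 3 and 0 to 2 with 1 library left out and 4 in each with the block. Of 8 T cell genes 3 fell in agonist against healthy libraries, 0 to 3 with 1 library left out. With the block 1 T cell gene rose and 6 fell in that comparison, and 1 rose and 3 fell in tumor-draining against healthy libraries. Of 8 natural killer genes 1 rose and 1 fell in each agonist comparison, and with the block 4 rose and 1 fell against tumor-draining and 2 rose and 1 fell against healthy libraries. Of 8 B cell genes 1 rose in each agonist comparison, and with the block 3 rose in each and 1 in tumor-draining against healthy libraries.

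The 8 endothelial genes and the 8 tested genes of the hyaluronan and versican matrix were called in no comparison by edgeR without the block. With the block Kdr, an endothelial receptor, was lower in agonist against tumor-draining libraries (edgeR adjusted p = 0.0217) and higher in agonist against healthy (0.000468) and in tumor-draining against healthy libraries (0.000793), and the matrix protease gene Adamts4 was higher in agonist against healthy libraries (0.0384). At an unadjusted p under 0.05 the endothelial list held 1 gene lower in agonist against healthy and 1 higher in tumor-draining against healthy libraries, and DESeq2 called none. The matrix list held 1 lower in agonist against tumor-draining, 1 higher in agonist against healthy and 1 higher and 1 lower in tumor-draining against healthy libraries, and DESeq2 called 1. Whether these shifts in cell markers bear on the members was not tested.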
